A study of Mus musculus with 162 samples.

Results

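Of 27120 genes measured in mouse cheek skin, 48 changed differently on day 8 of MC903 treatment in mice lacking the TSLP receptor than in wild-type mice, and in 44 of these the gene rose in wild-type skin and rose less, did not pass the test or fell in the knockout. The comparison rested on 16 of the 162 libraries of the series, taken by their labels as skin, day 8 and no injection. It held 5 wild-type MC903, 6 wild-type ethanol, 3 TSLPR.KO MC903 and 2 TSLPR.KO ethanol libraries. The genes were chosen by 1 test, the MC903 effect in TSLPR.KO minus that in wild-type, with a term for cohort. MC903 (calcipotriol) is a vitamin D analogue that produces an eczema-like dermatitis when painted on skin. It was given once a day at 0.2 mM in 20 µL of ethanol, and the control mice received ethanol alone. All mice were adult males on the C57BL/6 background, and the knockout was the Crlf2tm1Jni line (TSLPR.KO), a germline allele, so that every cell type lacked the receptor. The wild-type libraries came in 2 cohorts told apart by the form of their titles, with 3 MC903 and 3 ethanol libraries in cohort A and 2 and 3 in cohort B. All TSLPR.KO titles had the form of cohort B. The labels do not say what the forms stand for, nor whether the knockouts had wild-type littermates among the controls.

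TSLP is a cytokine released by keratinocytes under barrier stress or after vitamin D analogues. It binds a receptor made of TSLPR, encoded by Crlf2, and the IL-7 receptor alpha chain, encoded by Il7r, and signals through JAK kinases to STAT5 and other STAT factors. Dendritic cells, basophils, eosinophils, T cells and sensory neurons can respond to it, and it promotes type 2 immunity in skin and airway. Because the samples were whole skin, fewer cells of a type and less RNA per cell cannot be told apart in any result given here.

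The 16 libraries held 27210839 to 39629520 reads assigned to genes (median 33343038). Crlf2, the targeted gene (chr5:109554709-109558993, mm10), had 2.38 to 4.13 (median 3.65) cpm (reads scaled to library size by TMM) in the 6 wild-type ethanol libraries. It had 12.5, 12.3, 7.70, 7.81 and 4.36 cpm in the 5 wild-type MC903 libraries. The TSLPR.KO libraries had 0.0622 and 0.276 cpm with ethanol and 0.206, 0.232 and 0.203 cpm with MC903, from 2 to 8 reads each. The genotype labels and Crlf2 thus matched in all 16, and knockout and wild-type values did not overlap with ethanol (log2 difference -3.97 ± 0.47 (SE), edgeR adjusted p = 0.00183). Keratinocytes were well represented, with Krt14 at 1393 to 1765 cpm in wild-type ethanol and 1350.1 to 1755 cpm in TSLPR.KO ethanol skin. All 16 libraries also held muscle, fat and hair follicle RNA, and 1 TSLPR.KO MC903 library (replicate 1) had 18.2% of its reads outside annotated genes, the largest share of the 16. Day 12 offered no usable wild-type reference: 6 of the 9 libraries labelled wild-type skin had at least 789 cpm of the sensory neuron channel gene Scn10a and at most 1.12 cpm of Krt14. The other 3 went against their treatment labels in Cyp24a1, which was 7459 and 5258 cpm in 2 labelled ethanol and 0.956 cpm in 1 labelled MC903. In TSLPR.KO skin of day 12, Cyp24a1 followed the labels (0.213 to 13.2 cpm with ethanol, 1707.8 to 2767.5 cpm with MC903). Krt14 was there at least 1100.7 cpm. Crlf2 was 0.405 to 1.34 cpm, from 18 to 60 reads, which lay above the day 8 TSLPR.KO and below the day 8 wild-type values.

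More genes passed the test of MC903 against ethanol in wild-type than in TSLPR.KO skin. In wild-type, 3092 genes rose (11.4%) and 2994 fell (11%) at an adjusted p under 0.05 in edgeR's quasi-likelihood test. In TSLPR.KO, 491 rose (1.81%) and 388 fell (1.43%), in a contrast with 5 libraries in place of 11. That count of 879 fell to 238 without TSLPR.KO ethanol replicate 1 and to 504 without MC903 replicate 1. These counts do not measure the difference between genotypes, which was tested gene by gene as the interaction, in log2 units. The interaction called 45 genes lower in TSLPR.KO (0.166% of those tested) and 3 higher (0.0111%), and 3460 genes had an unadjusted p under 0.05. Of the genes called in both genotypes, 720 moved in the same direction and 3 in opposite directions, and 156 were called in TSLPR.KO only by the threshold. The 660 genes that rose by at least 2 log2 units in wild-type had a median change of 1.96 in TSLPR.KO, where 243 of them rose. Of these 660, 541 had an interaction below 0, of which 28 passed the test. Over all genes tested, 12540 of 27120 had one below 0. The 660 were chosen by a high wild-type change, which the interaction subtracts. Their lean below 0 is therefore partly set by that choice. The plot of both effects shows 45 called genes below the diagonal of equal effects and most of the other strongly risen genes nearer to it.

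**Figure D1:**
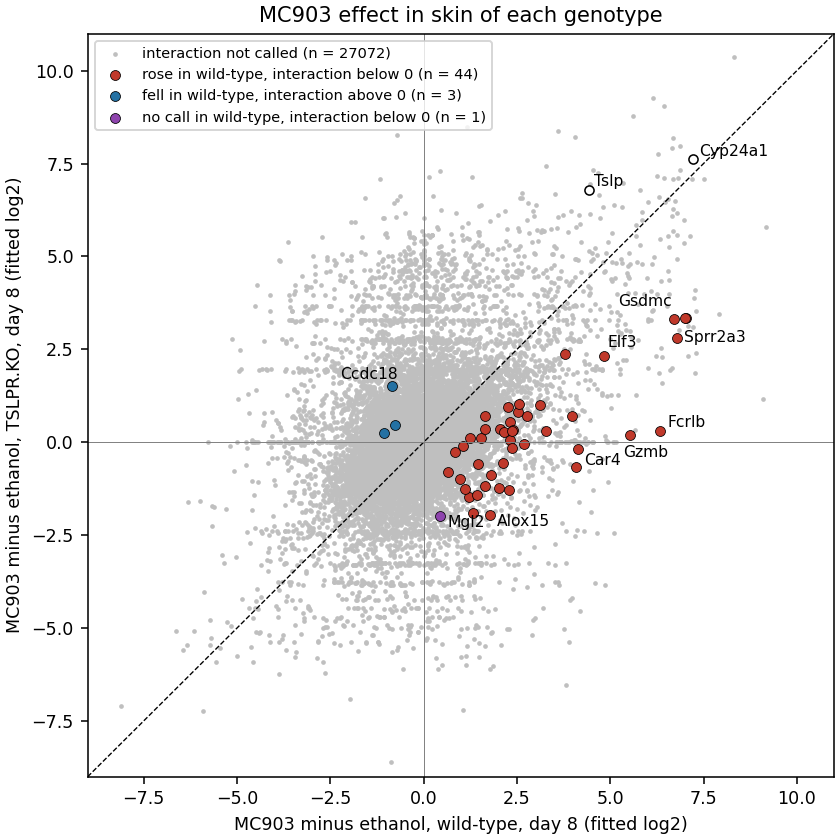
Log2 change with MC903 in wild-type skin (horizontal) and in TSLPR.KO skin (vertical) on day 8, 1 point per gene tested, with the diagonal of equal effects as a dashed line, the 48 genes called in the interaction in colour, and Tslp and Cyp24a1, which were not called, as open points. The 44 genes with a reduced rise lie right of 0 and below the diagonal, with a median change of 2.29 in wild-type and 0.16 in TSLPR.KO.

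The 44 genes with a reduced rise had a median interaction of -2.45, a median change of 2.29 in wild-type and one of 0.16 in TSLPR.KO. Those medians describe the selected genes and support nothing, since the interaction chose them. In TSLPR.KO, 9 of the 44 still rose (Sprr2a1, Sprr2a2, Sprr2a3, Klk6, Gsdmc, Elf3, Gm14328, Rps6ka4 and Stom), 2 fell (Skap1 and Cd209e), and 33 did not pass the test. Of the other 4 called genes, Lrrcc1, Rbm20 and Ccdc18 fell in wild-type and had an interaction above 0, and Mgl2 fell in TSLPR.KO without passing the test in wild-type.

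Among genes of the epidermis, the strongest evidence was for Sprr2a1, Sprr2a2 and Sprr2a3, which encode small proline-rich proteins cross-linked into the cornified envelope. They are near-identical neighbours on chromosome 3 (Sprr2a1 at chr3:92215799-92221911, mm10), and reads that fit more than 1 copy could be split among them, so that their 3 values are not independent. Sprr2a1 had 10.7 to 20.9 (median 12.8) cpm in wild-type ethanol skin and 3528, 2824, 1217, 1434 and 1044 cpm in wild-type MC903 skin. In TSLPR.KO it had 29.9 and 18.2 cpm with ethanol and 214, 279.7 and 243 cpm with MC903. Every MC903 library was above every ethanol library in both genotypes, and every TSLPR.KO MC903 library was below every wild-type one. The rise was 6.99 ± 0.33 (SE) in wild-type and 3.35 ± 0.46 in TSLPR.KO, and the interaction was -3.64 ± 0.49 (edgeR adjusted p = 0.00624). Sprr2a3 and Sprr2a2 had interactions of -3.98 and -3.71. Klk6, a serine protease of differentiating keratinocytes, also rose in both genotypes, by 3.79 in wild-type and 2.39 in TSLPR.KO (interaction -1.401 ± 0.23 (SE), adjusted p = 0.0214). Gsdmc, a gasdermin, rose by 6.72 and 3.33 (interaction -3.39). Elf3, an epithelial transcription factor, rose by 4.83 and 2.31 (interaction -2.52).

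The 300-base promoter windows of Sprr2a1 and Sprr2a2 in RefSeq's mouse assembly GRCm38.p6 (250 bases before to 50 after the start) were identical at all 300 positions. That of Sprr2a3 matched them at 272 of 272 positions after a shift of 28 bases. The window of Sprr2a1 is shown because the 3 copies carry it in common and rose the most of the epidermal genes named above. The windows of Csf2rb2, a receptor gene, and Pdcd1lg2, a ligand of PD-1, are shown as immune genes of the same class. Capitals mark matches to TTCNNNGAA or TTCNNNNGAA, the palindromes that STAT factors bind, with a spacer of 3 or 4 bases. Both patterns read the same on either strand, and a window holding both was counted once.
Sprr2a1 (chr3:92215585-92215884, plus strand): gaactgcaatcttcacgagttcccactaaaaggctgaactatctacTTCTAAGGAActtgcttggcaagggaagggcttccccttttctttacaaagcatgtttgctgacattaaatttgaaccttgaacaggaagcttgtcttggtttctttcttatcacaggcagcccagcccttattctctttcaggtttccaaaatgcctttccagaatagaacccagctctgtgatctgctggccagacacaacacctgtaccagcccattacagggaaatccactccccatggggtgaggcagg
Csf2rb2 (chr15:78305672-78305971, minus strand): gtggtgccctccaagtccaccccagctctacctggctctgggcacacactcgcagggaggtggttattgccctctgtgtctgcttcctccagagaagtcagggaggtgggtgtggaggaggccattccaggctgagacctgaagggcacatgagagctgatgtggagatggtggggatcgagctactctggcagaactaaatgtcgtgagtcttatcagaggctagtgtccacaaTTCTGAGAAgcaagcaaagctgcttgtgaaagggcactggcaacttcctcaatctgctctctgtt
Pdcd1lg2 (chr19:29410669-29410968, plus strand): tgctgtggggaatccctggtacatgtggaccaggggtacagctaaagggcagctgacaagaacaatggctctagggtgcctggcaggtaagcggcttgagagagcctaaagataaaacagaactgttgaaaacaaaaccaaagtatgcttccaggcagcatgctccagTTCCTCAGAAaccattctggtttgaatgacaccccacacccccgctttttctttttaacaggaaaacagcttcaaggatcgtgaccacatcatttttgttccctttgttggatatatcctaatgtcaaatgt
A window was found for 35 of the 44 genes, and 14 of those (40%) held a match, against 14.5% of the 15305 genes tested that had a window and 16.6% of all 27025 genes in the table. Among called genes that rose by at least 2 log2 units in wild-type, 20.9% of 431 held one. With a spacer of 3 bases the share was 14.3% of the 35 (8.47% of genes tested), and with 4 bases it was 28.6% (6.89%). The 3 Sprr2a copies counted as 3 of the 14. The others were Cd209e, Csf2rb2, Cyp11a1, Gzmb, Il18rap, Itgax, Klk6, Pdcd1lg2, Serpina3g, Slc27a3 and Ubash3b. All 3 windows printed above hold a match, while those of Il21r, Cxcr3, Cnr2, Ltb4r1 and Adam8, among others, hold none. These matches describe letters in a window, and binding was not measured.

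Car4, a membrane-bound carbonic anhydrase (chr11:84957786-84966044, mm10), rose in wild-type skin, and its change in TSLPR.KO skin did not pass the test (edgeR adjusted p = 0.903). It had 0.402 to 2.54 (median 1.36) cpm in wild-type ethanol skin and 42.3, 43.4, 28.2, 8.97 and 15.3 cpm in wild-type MC903 skin. TSLPR.KO libraries had 1.77 and 1.18 cpm with ethanol and 1.03, 1.51 and 1.39 cpm with MC903. The 5 wild-type MC903 libraries stood above all other 11. The change was 4.14 ± 0.32 (SE) in wild-type and -0.17 ± 0.48 in TSLPR.KO, with an interaction of -4.31 ± 0.57 (edgeR adjusted p = 0.00624). B4galnt1, which makes complex gangliosides, rose by 1.55 in wild-type and changed by 0.11 in TSLPR.KO (interaction -1.44 ± 0.19 (SE), adjusted p = 0.00624).

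Metabolic and transport genes were also among the 44. Egln3, an oxygen-sensing prolyl hydroxylase, had 40.6 to 71.2 (median 45.6) cpm in wild-type ethanol, 451, 344, 330.1, 143 and 147 cpm in wild-type MC903, 80.6 and 86.9 cpm in TSLPR.KO ethanol and 85.4, 86.4 and 91.4 cpm in TSLPR.KO MC903 skin. The TSLPR.KO MC903 and ethanol values overlapped, and all 5 wild-type MC903 values were above them. Slc2a1, the glucose transporter GLUT1, rose by 3.11 in wild-type and changed by 1.01 in TSLPR.KO (adjusted p = 0.0629). Its interaction was -2.10 ± 0.32 (SE, adjusted p = 0.0178). Slc6a14, an amino acid transporter, rose by 2.28 in wild-type and had a change of -1.29 in TSLPR.KO, which did not pass the test. The lipid genes Degs2, a ceramide-modifying enzyme, and Slc27a3, a fatty acid transport family member, had interactions of -2.08 and -1.46. Cyp26b1, which degrades retinoic acid, had one of -1.87, and the mitochondrial carrier Slc25a48 one of -1.70.

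Several other called genes, grouped here after the call, are known from lymphocytes. Skap1, an adaptor of T cell adhesion, had 0.766 to 1.36 (median 1.12) cpm in wild-type ethanol skin and 2.07, 3.08, 1.92, 2.36 and 3.10 cpm in wild-type MC903 skin. TSLPR.KO libraries had 2.71 and 1.76 cpm with ethanol and 0.860, 0.724 and 0.845 cpm with MC903. Both TSLPR.KO ethanol values were above all 6 wild-type ethanol values, and all 3 TSLPR.KO MC903 values were below all 5 wild-type MC903 values. It rose by 1.22 in wild-type and fell in TSLPR.KO, with a change of -1.46 (edgeR adjusted p = 0.0196). Il21r, the receptor of the T cell cytokine IL-21, rose by 3.98 in wild-type and changed by 0.72 in TSLPR.KO (interaction -3.26 ± 0.49 (SE), adjusted p = 0.0178). Il18rap, a chain of the IL-18 receptor, and Cnr2, the cannabinoid receptor of immune cells, had interactions of -2.98 and -1.97.

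Gzmb, the cytotoxic protease granzyme B, and Cxcr3, a chemokine receptor of activated T cells, were the 2 of the 44 whose MC903 libraries overlapped between genotypes. Gzmb had 0.0299 to 0.297 (median 0.177) cpm in wild-type ethanol and 6.64, 19.1, 2.23, 4.66 and 8.76 cpm in wild-type MC903 skin. TSLPR.KO libraries had 1.71 and 1.73 cpm with ethanol and 1.995, 2.32 and 1.62 cpm with MC903. All wild-type ethanol values were below both TSLPR.KO ethanol values, and 4 of 5 wild-type MC903 values were above all TSLPR.KO MC903 values (interaction -5.33 ± 0.85 (SE), adjusted p = 0.0178). Cxcr3 had 0.661 to 1.23 (median 0.881) cpm in wild-type ethanol, 2.13, 5.21, 3.09, 2.33 and 2.37 cpm in wild-type MC903, 3.49 and 3.08 cpm in TSLPR.KO ethanol and 0.791, 2.23 and 1.32 cpm in TSLPR.KO MC903 skin. Its interaction was -2.83 ± 0.47 (SE, adjusted p = 0.0216), and it was higher in TSLPR.KO than wild-type ethanol skin (difference 2.12, adjusted p = 0.0498).

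Cytokine receptor genes included Csf2rb, the signalling chain common to the receptors of IL-3, IL-5 and GM-CSF, and its neighbour Csf2rb2, the mouse IL-3 receptor chain. Csf2rb had 10.7 to 17.3 (median 13.6) cpm in wild-type ethanol skin and 88.3, 146, 93.0, 70.7 and 86.9 cpm in wild-type MC903 skin. TSLPR.KO libraries had 22.2 and 13.9 cpm with ethanol and 32.4, 33.4 and 22.1 cpm with MC903. The 5 wild-type MC903 libraries lay above all others, with a rise of 2.78 ± 0.19 (SE) against a change of 0.70 ± 0.29 in TSLPR.KO (interaction -2.08 ± 0.33, adjusted p = 0.0178). Csf2rb2 had an interaction of -1.77. The 2 genes are close paralogs, and reads shared between them are uncertain.

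Several more, also grouped after the call, are known from myeloid cells. Mgl2, a C-type lectin of dermal macrophages and dendritic cells, had 33.3 to 80.8 (median 47.2) cpm in wild-type ethanol and 70.8, 113.8, 88.1, 43.4 and 54.8 cpm in wild-type MC903 skin. TSLPR.KO libraries had 101 and 50.9 cpm with ethanol and 15.4, 19.99 and 21.97 cpm with MC903, the 3 lowest values of the 16. Mgl2 fell in TSLPR.KO, with a change of -1.99 ± 0.36 (SE, adjusted p = 0.00403), and changed by 0.45 ± 0.24 in wild-type, which did not pass the test. Alox15, a lipoxygenase of alternatively activated macrophages and eosinophils, had 0.687 to 2.47 (median 1.43) cpm in wild-type ethanol, 2.97, 9.67, 2.32, 5.58 and 3.89 cpm in wild-type MC903, 4.89 and 2.76 cpm in TSLPR.KO ethanol and 1.34, 0.898 and 0.744 cpm in TSLPR.KO MC903 skin (interaction -3.71 ± 0.68 (SE), adjusted p = 0.0356). Cd209e, a lectin of the DC-SIGN family, rose by 1.33 in wild-type and fell in TSLPR.KO with a change of -1.91. Pdcd1lg2 had an interaction of -4.75, the integrin Itgax (CD11c) one of -2.06, and the elastase Mmp12 one of -2.69. Ltb4r1, a leukotriene B4 receptor, had one of -1.71, and the metalloprotease Adam8 one of -2.72.

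Fcrlb, an Fc receptor-like gene, could not be given a fitted fold change in wild-type, because its ethanol libraries held 0 to 2 reads. The MC903 libraries held 44 to 143 reads, and the ratio of the depth-scaled sums was 98.5 (95% exact interval 41.8 to 305, counting error only). TSLPR.KO libraries held 2 and 15 reads with ethanol and 12, 14 and 7 with MC903, which overlapped. Its interaction passed the test (adjusted p = 0.0174) on these counts. Cyp11a1, a steroid synthesis enzyme also found in activated mast cells and basophils, rose by 2.37 in wild-type and changed by -0.15 in TSLPR.KO (interaction -2.52 ± 0.44 (SE), adjusted p = 0.0302).

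The remaining genes of the 44 are given by their interactions alone. They were Litaf (-1.17), Sectm1b (-2.86), Cdk6, a cell cycle kinase (-1.29), Ubash3b, a phosphatase that restrains lymphocyte receptor signals (-1.14), Cmtm6 (-1.10), Rps6ka4, a kinase acting on chromatin (-0.93), Stom (-1.32), Serpina3g (-3.26) and Rab44 (-2.05). The predicted genes Gm14328 and Gm5809 had -1.54 and -2.38, and reads from similar copies elsewhere could count in them. Of the 3 genes that fell in wild-type and had an interaction above 0, Rbm20, a splicing regulator, had 8.52 to 10.3 (median 9.28) cpm in wild-type ethanol, 4.35, 4.07, 3.55, 5.68 and 4.65 cpm in wild-type MC903, 5.66 and 7.496 cpm in TSLPR.KO ethanol and 8.36, 7.36 and 7.84 cpm in TSLPR.KO MC903 skin. Its interaction was 1.30 ± 0.24 (SE, adjusted p = 0.0326). Lrrcc1 and Ccdc18, coiled-coil proteins, had interactions of 1.22 and 2.36. In TSLPR.KO Ccdc18 rose, from 8.43 and 9.74 cpm with ethanol to 20.9, 38.9 and 17.7 cpm with MC903 (change 1.51, adjusted p = 0.0381), and the changes of Lrrcc1 (0.46) and Rbm20 (0.26) were above 0 and did not pass. The largest adjusted p among the 48 was 0.0485 (Adam8 and Rab44 lay just inside), and the next genes outside were Tbc1d10c (-2.07), Pglyrp4 (-1.35) and Klk9 (-1.43), each at 0.0519.

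**Figure D2:**
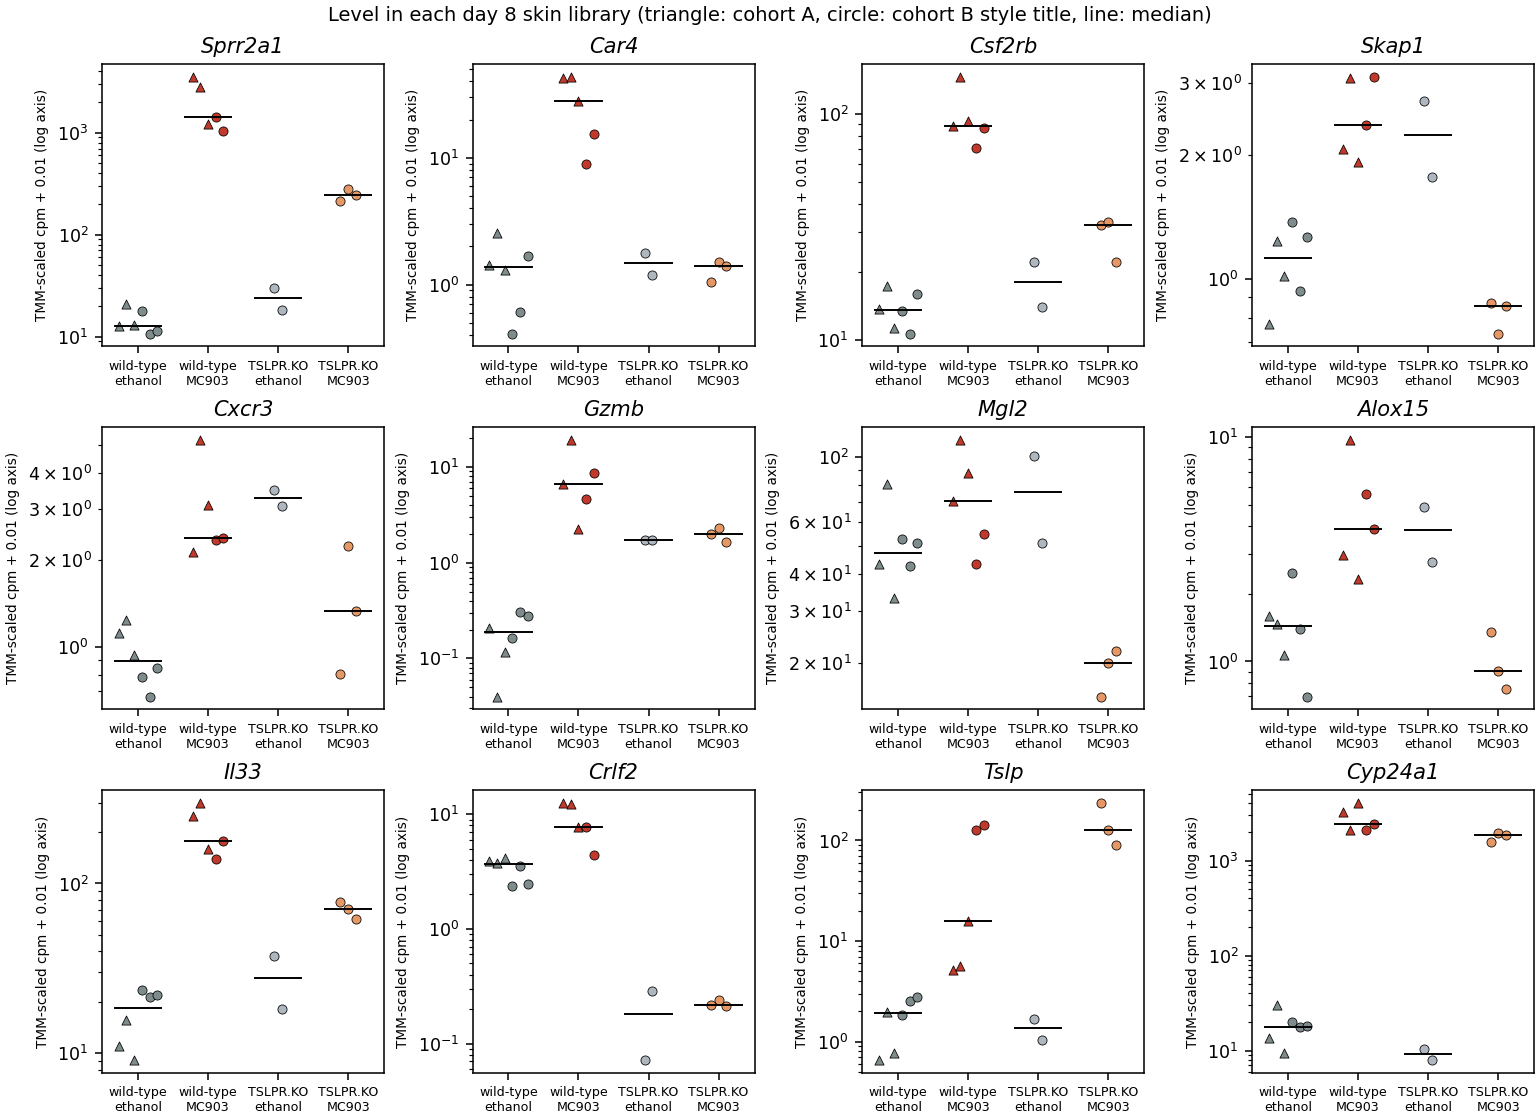
Level in each of the 16 libraries (cpm scaled by TMM plus 0.01, log axis) of 12 genes, 1 panel per gene, by genotype and treatment. Each point is a library, a triangle for cohort A and a circle for titles in the style of cohort B, and the line is the group median. The 5 wild-type MC903 libraries of Car4 and Csf2rb lie above all others, Gzmb and Cxcr3 are higher in TSLPR.KO than in wild-type ethanol skin, and Cyp24a1 rises in both genotypes.

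The interaction combines 2 differences between genotypes, with MC903 and with ethanol, and both leaned the same way in these genes. In 42 of the 44, every TSLPR.KO MC903 library was below every wild-type MC903 library, which held for 5.38% of all genes. The direct difference between the MC903 libraries was below 0 in all 44, with a median of -1.44 (range -3.43 to -0.47) beside 0.02 over all genes. It passed the test as lower in 12, Sprr2a1, Sprr2a2, Sprr2a3, Car4, Skap1, Csf2rb, Csf2rb2, Slc6a14, Cdk6, Ubash3b, Stom and Rab44, and was called lower in 0.0959% of all genes and higher in 0.0221%. Those 32 calls were 10 to 13 without any 1 of the TSLPR.KO MC903 libraries, and 10 to 54 over all fits without 1 library. With ethanol, TSLPR.KO was above wild-type in all 44, with a median of 0.99 (all genes -0.02). That difference passed the test in 2, B4galnt1 and Cxcr3, and in 0.0442% of all genes, a count of 12 that fell to 1 without TSLPR.KO ethanol replicate 1. Both TSLPR.KO ethanol libraries were above all 6 wild-type ones in 22 of the 44 (3.09% of all genes). Replicate 1 alone was above all 6 in 38 and replicate 2 in 24. The share of all genes was not counted for 1 library alone, so these counts cannot be weighed against it. These differences use the libraries that chose the genes and are a description.

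The summed level of 3 of the 26 gene lists, those of T cells, the interferon response and CXCR3 with its ligands, was higher in both TSLPR.KO ethanol libraries than in all 6 wild-type ones, and no list was lower in both. None of the 26 T cell and 21 interferon response genes and 1 of the 4 CXCR3 genes, Cxcr3, passed the test between ethanol libraries. The T cell list of 26 genes summed to 49.9 to 74.6 cpm in wild-type ethanol and 88.1 to 127.5 cpm in TSLPR.KO ethanol skin, with no overlap, and to 95.8 to 144 cpm in wild-type and 70.9 to 148 cpm in TSLPR.KO MC903 skin. Cd3e, which overlapped, was 4.30 to 9.92 cpm in TSLPR.KO ethanol and 3.76 to 6.68 cpm in wild-type ethanol skin. With ethanol, the interferon response list summed to 126.9 to 189 cpm in wild-type and 235 to 372 cpm in TSLPR.KO skin, and the CXCR3 list to 4.77 to 5.99 and 13.2 to 23.3 cpm. The part of this in the interactions was not tested. Without TSLPR.KO ethanol replicate 1 the interaction called 1 gene, Fcrlb, and without replicate 2 it called 87. Leaving out 1 TSLPR.KO MC903 library left 6 to 13, and the direction of all 48 held in every fit.

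Other libraries gave each side of the comparison separately. In PBS-injected wild-type skin on day 8 (2 MC903 and 3 ethanol libraries), the change was above 0 in all 44, with 34 called higher against 4.24% of all genes and a median of 1.92. In the 2 cohorts of the uninjected wild-type mice, which the rule had used, the median rise was 2.56 in A and 2.03 in B. TSLPR.KO skin on day 12 (4 MC903 and 3 ethanol libraries) had 33 of the 44 above 0, with 19 called higher and 3 lower, and a median of 0.99. Over all genes there, 5.41% were called higher and 4.62% lower. Sprr2a1 rose by 5.59 ± 0.57 (SE) in TSLPR.KO skin on day 12, from 42.5, 25.2 and 8.61 cpm to 1262, 846, 1454 and 1295 cpm. Gsdmc and Klk6 rose by 5.29 and 4.01. Alox15, Cd209e and Slc6a14 fell, with changes of -1.64, -2.24 and -0.77, and Mgl2 fell too (-1.81, adjusted p = 0.00168). Car4 changed by 0.26 (adjusted p = 0.714). Days 8 and 12 of TSLPR.KO were not tested against each other.

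**Figure D3:**
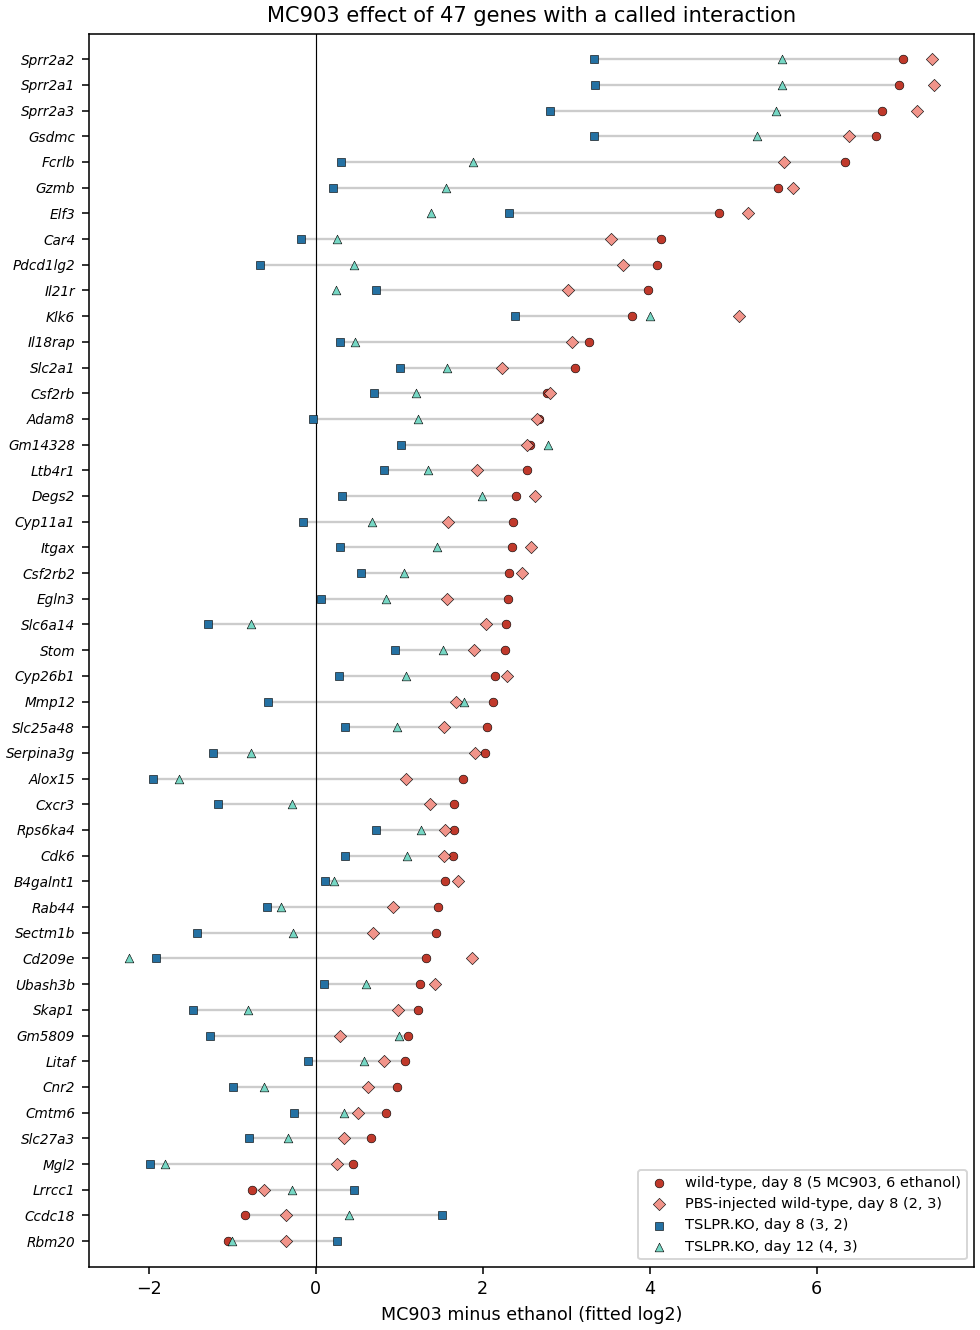
Log2 change with MC903 of 47 of the 48 called genes, 1 row and 4 symbols per gene, in wild-type day 8, PBS-injected wild-type day 8, TSLPR.KO day 8 and TSLPR.KO day 12 skin. The genes with a reduced rise are above 0 for both wild-type symbols, while the TSLPR.KO symbols range from well above 0 (Sprr2a1, Gsdmc, Klk6) to below 0 (Alox15, Cd209e, Mgl2).

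A second condition of the study was depletion of neutrophils with an antibody to Gr1 (aGr1) in wild-type mice, with 4 MC903 and 4 ethanol libraries on day 8. There 29 of the 44 genes rose (12.2% of all genes) and 1, Skap1, fell, with a median change of 1.43. The MC903 effect in TSLPR.KO minus that in aGr1 skin was below 0 in 40 of the 44 and called lower in 19, beside 0.833% of all genes called lower and 0.569% higher. The 377 calls fell to 63 without TSLPR.KO ethanol replicate 1 and rose to 882 without aGr1 ethanol replicate 3. This contrast shares the TSLPR.KO libraries with the interaction, so it is a description of the same knockout values beside another reference. Called lower were, among others, Sprr2a3 (-3.99), Cd209e (-3.88), Klk6 (-3.05), Alox15 (-2.72), Cyp26b1 (-2.50) and Egln3 (-2.18). The aGr1 ethanol replicates 1 and 2 stood apart from replicates 3 and 4 in lymphocyte genes. In replicates 1 to 4 with ethanol, Cd3e was 9.73, 10.1, 2.74 and 1.80 cpm, Skap1 4.96, 4.54, 1.28 and 0.870 cpm, and Cnr2 18.6, 11.04, 2.87 and 2.24 cpm, beside 0.738 to 1.35 cpm (Skap1) and 3.28 to 4.54 cpm (Cnr2) with MC903. Without replicates 1 and 2, a fit chosen after seeing the data, 30 of the 44 rose and 0 fell in aGr1 skin (7.25% and 9.59% of all genes), the change of Skap1 went from -1.51 to -0.08 (adjusted p = 0.922) and that of Cnr2 from -1.17 to 0.60, which did not pass in either fit. The TSLPR.KO minus aGr1 effect was then below 0 in all 44 and called lower in 16 (0.433% of all genes, beside 0.41% called higher).

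No gene of the TSLP receptor pathway list passed the interaction test. Of 17 measured, 11 rose in wild-type (median 1.19) and 1, Tslp, rose in TSLPR.KO (median -0.15). An interaction below 0 was found in 15, with none called, beside 12540 of the 27120 genes tested. The members of a list were measured in the same libraries, so such counts are not independent results. Tslp had 0.653 to 2.77 (median 1.90) cpm in wild-type ethanol, 5.13, 5.65, 15.8, 127.3 and 142 cpm in wild-type MC903, 1.68 and 1.04 cpm in TSLPR.KO ethanol and 235, 127.3 and 90.7 cpm in TSLPR.KO MC903 skin. The 3 cohort A libraries were the lowest of the wild-type MC903 values, and the TSLPR.KO values lay around those of cohort B. Its change was 4.42 ± 0.54 (SE) in wild-type and 6.79 ± 0.95 in TSLPR.KO, and the interaction of 2.36 ± 0.93 did not pass (adjusted p = 0.317). The feedback inhibitors Socs1 and Socs3 rose in wild-type by 2.31 and 2.06, and had interactions of -1.94 and -0.84 (adjusted p = 0.239 and 0.370).

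Of 18 type 2 cytokine and receptor genes, 11 rose and 1 fell in wild-type and 2 rose in TSLPR.KO, with medians of 1.87 and 0.14 and no interaction called. Il10 rose by 3.27 in wild-type and had a change of 1.43 in TSLPR.KO. Il3 and Csf2, growth factors of granulocytes, held 0 to 1 and 0 to 2 reads in wild-type ethanol libraries and 1 to 13 and 1 to 59 in wild-type MC903 libraries. Of 21 basophil and mast cell genes, 18 rose and 1 fell in wild-type and none passed in TSLPR.KO, with medians of 1.87 and 0.46. Cyp11a1 alone was called in the interaction. Mcpt8, a protease specific to mouse basophils, held 1 to 4 reads in wild-type ethanol libraries, 263 to 784 in wild-type MC903 libraries, 1 and 2 in TSLPR.KO ethanol libraries and 2 to 14 in TSLPR.KO MC903 libraries. The difference between the MC903 libraries of both genotypes was -5.76 ± 0.53 (SE, edgeR adjusted p = 6.47e-05), while the interaction, which rests on ethanol libraries near 0 reads, did not pass (adjusted p = 0.233). Fcer1a, the binding chain of the IgE receptor, rose by 5.20 in wild-type and had a change of 3.001 in TSLPR.KO that did not pass. The mast cell protease gene Mcpt2 had 0 reads in every ethanol library, 1 to 17 in wild-type MC903 libraries and 0 to 2 in TSLPR.KO MC903 libraries. The mast cell protease genes Mcpt4, Cma1 and Tpsb2 overlapped between the MC903 libraries of wild-type and TSLPR.KO skin. Mcpt4 was 25.96 to 54.21 and 30.51 to 39.24 cpm, and Cma1 was 15.36 to 33.8 and 18.04 to 25.61 cpm. Tpsb2 was 4.527 to 17.74 and 4.538 to 6.321 cpm, with medians of 13.68 and 5.325 cpm.

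Of 12 eosinophil genes and attractants, 5 rose and 2 fell in wild-type, and 0 rose and 3 fell in TSLPR.KO. Ccl24, an eosinophil attractant, rose by 2.05 in wild-type and had a change of -2.10 in TSLPR.KO (interaction -4.15 ± 0.93 (SE), adjusted p = 0.0939), and Ccl7 had an interaction of -0.81. Prg2, a granule protein gene, held 0 to 2 reads in wild-type ethanol and 0 to 20 in wild-type MC903 libraries. TSLPR.KO libraries held 0 to 6 and 1 to 6. The eosinophil marker Epx had 0 to 3 reads in every library. Siglecf, another eosinophil marker, was 0.0954 to 0.656 cpm with ethanol and 0.533 to 1.97 cpm with MC903 in wild-type skin. In TSLPR.KO Siglecf was 0.761 to 0.867 and 0.0687 to 0.431 cpm, from 2 to 25 reads. It was thus higher in TSLPR.KO with ethanol and lower with MC903, without overlap. Of 26 T cell genes, 16 rose and 4 fell in wild-type and 1 rose and 3 fell in TSLPR.KO. Interactions were below 0 in 24 of them, beside 12540 of 27120 over all genes. With ethanol, the median difference of TSLPR.KO minus wild-type was 1.06 in this list (-0.021 over all genes), and the interaction subtracts that difference. With MC903, the T cell marker Cd3e was 1.438 to 3.494 cpm in wild-type and 1.202 to 2.205 cpm in TSLPR.KO skin. Both ranges lay below those with ethanol (3.76 to 6.682 and 4.298 to 9.921 cpm). The MC903 ranges of both genotypes also overlapped for Cd3d (0.9418 to 2.25 and 0.8932 to 1.12 cpm) and Cd4 (1.569 to 5.99 and 1.948 to 4.569 cpm). Icos and Cd6, surface receptors of activated T cells, missed the threshold with interactions of -2.76 (adjusted p = 0.0618) and -3.64 (adjusted p = 0.0653). That of Cd40lg, the CD40 ligand, was -3.82 (adjusted p = 0.194).

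All 4 genes of CXCR3 and its ligands rose in wild-type (median 3.81), and none passed in TSLPR.KO (median 0.80). The ligands Cxcl9 and Cxcl10 had interactions of -3.44 and -3.39 that did not pass (adjusted p = 0.283 and 0.185). Cxcl11 had one of -1.54. Of 21 interferon response genes, 18 rose in wild-type and none passed in TSLPR.KO (medians 1.91 and 0.71). No interaction was called and 19 were below 0 (12540 of 27120 over all genes). Gbp2, a guanylate-binding protein, had an interaction of -3.86, Isg15 of -2.27 and Ifit1 of -1.61 (adjusted p = 0.153, 0.358 and 0.487).

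Of 23 alternatively activated macrophage genes, 14 rose and 1 fell in wild-type and 1 rose and 2 fell in TSLPR.KO, and Mgl2, Alox15 and Mmp12 were called in the interaction. Arg1 rose by 2.88 in wild-type and had an interaction of -2.13 (adjusted p = 0.108). The chitinase-like genes Chil3 and Chil4 rose by 6.85 and 7.08 in wild-type and had changes of 3.01 and 2.34 in TSLPR.KO that did not pass. Of 23 dendritic cell and antigen presentation genes, 9 rose and 1 fell in wild-type and 0 rose and 4 fell in TSLPR.KO, with Itgax and Pdcd1lg2 called. The Langerhans cell gene Cd207 fell in both, with changes of -2.82 and -3.15. Cd80 and Ccl17 rose in wild-type by 2.77 and 2.59 and had interactions of -0.9983 and -1.83.

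Some genes of the neutrophil list were among those that rose in both genotypes. Of 23 neutrophil genes, 16 rose and 1 fell in wild-type and 9 rose and 1 fell in TSLPR.KO, with medians of 3.82 and 2.68. None was called in the interaction, though 19 were below 0 (12540 of 27120 over all genes). The list summed to 299.6 to 970.3 cpm in wild-type and 194 to 399.6 cpm in TSLPR.KO MC903 skin, which overlapped. S100a9, a subunit of calprotectin, rose by 6.18 in wild-type and 4.99 in TSLPR.KO (interaction -1.19 ± 1.08 (SE), adjusted p = 0.682). Of 6 CXCR2 ligand and receptor genes, 6 rose in wild-type and 2 in TSLPR.KO (medians 5.23 and 3.58). Cxcl5, a neutrophil attractant, rose by 6.67 and 6.27, with an interaction of -0.40 ± 1.504 (SE). Stfa2, a stefin, rose by 5.86 and 4.79. In aGr1 skin, where neutrophils were depleted, Stfa2 was 0.807 to 4.66 cpm with ethanol and 410 to 546 cpm with MC903. S100a9 was there 0.664 to 4.45 and 63.7 to 73.2 cpm. Both thus rose with MC903 where neutrophils were depleted. Which cells they came from was not tested, and they are not read as neutrophil markers here. The neutrophil marker Ly6g held 0 to 11 reads in wild-type and 0 to 1 in TSLPR.KO MC903 libraries. Csf3r was 2.70 to 5.77 cpm with ethanol and 11.5 to 35 cpm with MC903 in wild-type skin. In TSLPR.KO it was 3.35 to 3.40 and 9.48 to 16.8 cpm. Clec4e, a receptor of myeloid cells, rose by 5.98 in wild-type and had a change of 4.43 in TSLPR.KO, which did not pass. The CXCR2 ligands Cxcl2 and Cxcl3 also rose in wild-type with a TSLPR.KO change that did not pass (Cxcl2 6.36 and 4.33, Cxcl3 5.57 and 2.83).

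Most antimicrobial and stress genes of keratinocytes rose in both genotypes. Of 18 antimicrobial and S100 genes, 15 rose in wild-type and 12 in TSLPR.KO, with no interaction called. Of 23 stress keratin and wound epidermis genes, 20 rose in wild-type and 16 in TSLPR.KO, with medians of 4.43 and 3.34, and Sprr2a1 and Klk6 were called. Saa3, an acute phase protein, rose by 6.44 and 7.10, and Stfa1, a stefin, by 6.87 and 7.32. BC100530, another stefin, rose by 6.69 and 7.09, and the protease inhibitor Wfdc12 by 6.55 and 6.55. Sprr2d, a paralog of the Sprr2a genes, rose by 7.27 and 4.10 (interaction -3.16 ± 0.76 (SE), adjusted p = 0.114). Of 22 alarmin and IL-1 family genes, 15 rose and 1 fell in wild-type and 10 rose and 1 fell in TSLPR.KO. The alarmin Il33, singled out after its values were seen, rose by 3.67 in wild-type and had a change of 1.34 in TSLPR.KO (interaction -2.33 ± 0.48 (SE), adjusted p = 0.0650). Il19, an IL-10 family cytokine, rose by 6.55 and 4.60. Il24 rose from 0 reads in both TSLPR.KO ethanol libraries to 53 to 223 in the MC903 libraries. Osm, oncostatin M, rose by 5.53 in wild-type and had a change of 3 in TSLPR.KO.

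Of 26 epidermal differentiation genes, 16 rose and 7 fell in wild-type and 2 rose and 4 fell in TSLPR.KO, and of 12 genes of the IL-17 and IL-22 axis, 3 rose and 2 fell in wild-type and 1 fell in TSLPR.KO. Neither list had a called interaction. The suprabasal keratin Krt77 fell in both genotypes (-6.45 and -5.60), as did the filaggrin family gene Flg2 (-3.37 and -2.90) and Il22ra2, the decoy receptor of IL-22 (-3.23 and -3.84). Rptn, repetin, rose in both (4.42 and 5.15). Il23a and Il17rc rose in wild-type, by 3.32 and 1.42, and had interactions of -2.13 and -0.73. Of 18 extracellular matrix genes, 9 rose and 2 fell in wild-type and 5 rose in TSLPR.KO, with Mmp12 called. Mmp13, a collagenase, rose by 6.80 and 5.58, and the protease inhibitor Timp1 by 3.96 and 2.79. Mmp9 rose by 3.11 in wild-type and had a change of 0.74 in TSLPR.KO.

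Cyp24a1, a direct target of the vitamin D receptor, rose in both genotypes. It encodes the enzyme that inactivates vitamin D and had 9.42 to 30.2 (median 17.8) cpm in wild-type ethanol, 3250.3, 2086, 4015, 2111 and 2431 cpm in wild-type MC903, 10.3 and 8.02 cpm in TSLPR.KO ethanol and 1570.1, 1960.2 and 1868 cpm in TSLPR.KO MC903 skin. It rose by 7.23 ± 0.31 (SE) in wild-type and 7.62 ± 0.54 in TSLPR.KO, with an interaction of 0.39 ± 0.46 (adjusted p = 0.768). Of 9 vitamin D response genes, 5 rose in wild-type and 3 in TSLPR.KO. S100g, the calcium-binding calbindin D9k, rose by 4.68 in wild-type. In TSLPR.KO it held 3 reads in all with ethanol and 753 in all with MC903. Fgf23, a phosphate-regulating hormone, held 0 to 2 reads with ethanol and 23 to 236 with MC903 in wild-type, and 0 to 1 and 3 to 45 in TSLPR.KO.

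**Figure D4:**
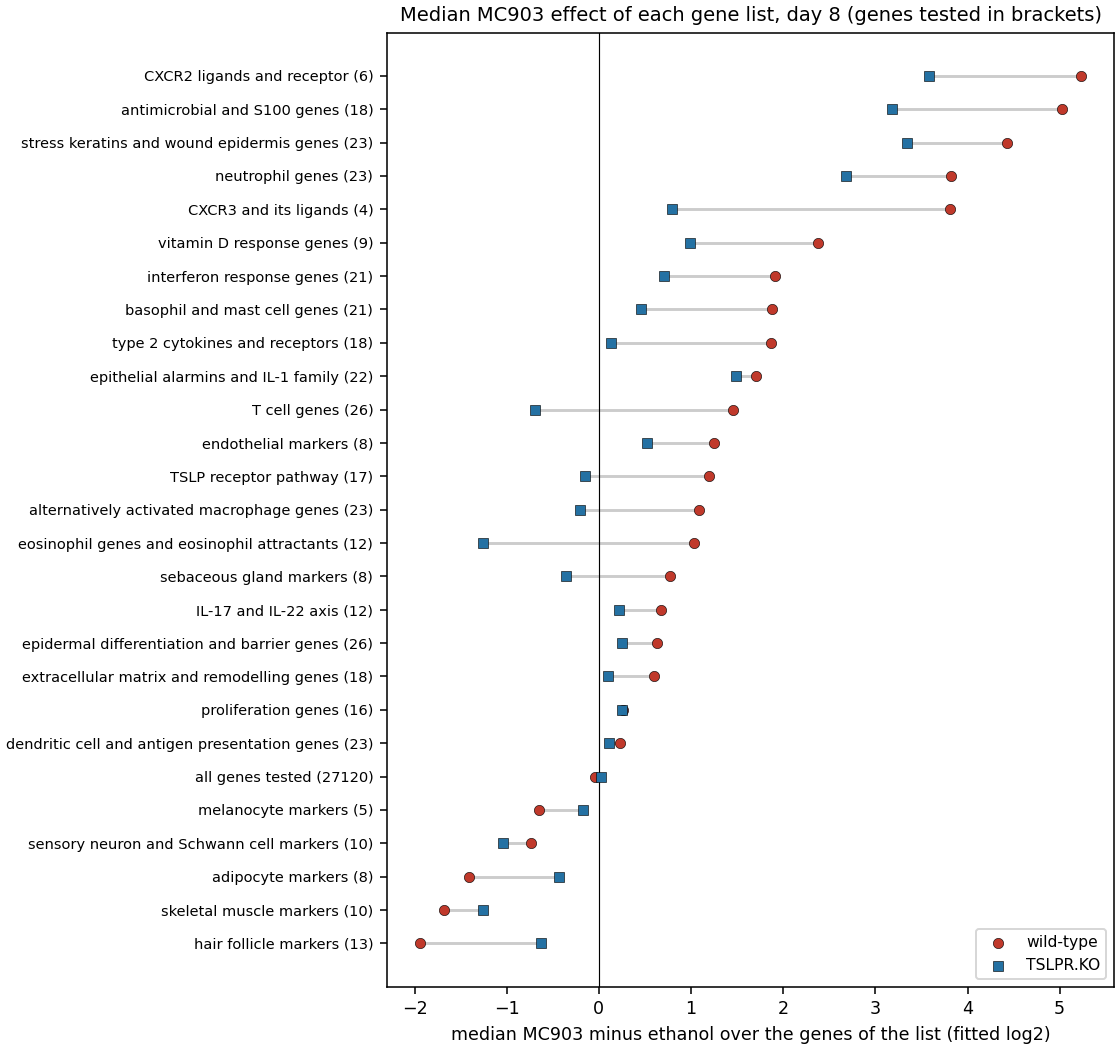
Median log2 change with MC903 of each gene list in wild-type and in TSLPR.KO skin on day 8, with the number of genes tested in brackets. Neutrophil, antimicrobial and stress keratin lists have high medians in both genotypes, while the T cell, eosinophil and alternatively activated macrophage lists are above 0 in wild-type and below 0 in TSLPR.KO.

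Other tissues in the skin also moved. All 10 muscle, all 8 adipocyte and 11 of 13 hair follicle markers fell in wild-type, and none passed in TSLPR.KO, where fewer libraries were compared. The median change of the muscle markers was -1.68 in wild-type and -1.255 in TSLPR.KO. Those of the adipocyte markers were -1.41 and -0.434, and those of the hair follicle markers -1.94 and -0.626. Of 8 endothelial markers 7 rose in wild-type and 2 in TSLPR.KO, of 8 sebaceous markers 3 rose and 1 fell in wild-type, of 5 melanocyte markers 4 fell, of 10 sensory neuron and Schwann cell markers 1 fell, and of 16 proliferation genes 5 rose. In TSLPR.KO none of the sebaceous, melanocyte or proliferation genes passed, and 1 sensory neuron or Schwann cell marker fell. None of these lists had a called interaction. The summed muscle markers were 7518 to 15645 cpm in TSLPR.KO ethanol and 4462 to 20509 cpm in wild-type ethanol skin, and the summed hair follicle markers were 7788 to 38502 and 17173 to 72270 cpm. The part of tissue makeup in the interactions was not tested.

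The number of called genes depended on the wild-type reference. Against cohort A alone the interaction called 26 genes, 15 of them among the 48, and against cohort B alone, whose titles match those of the knockouts, it called 5, all among the 48. Against PBS-injected wild-type skin edgeR called 0, with 1784 genes at an unadjusted p under 0.05. DESeq2's Wald test called 559, including all 48.

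**Figure D5:**
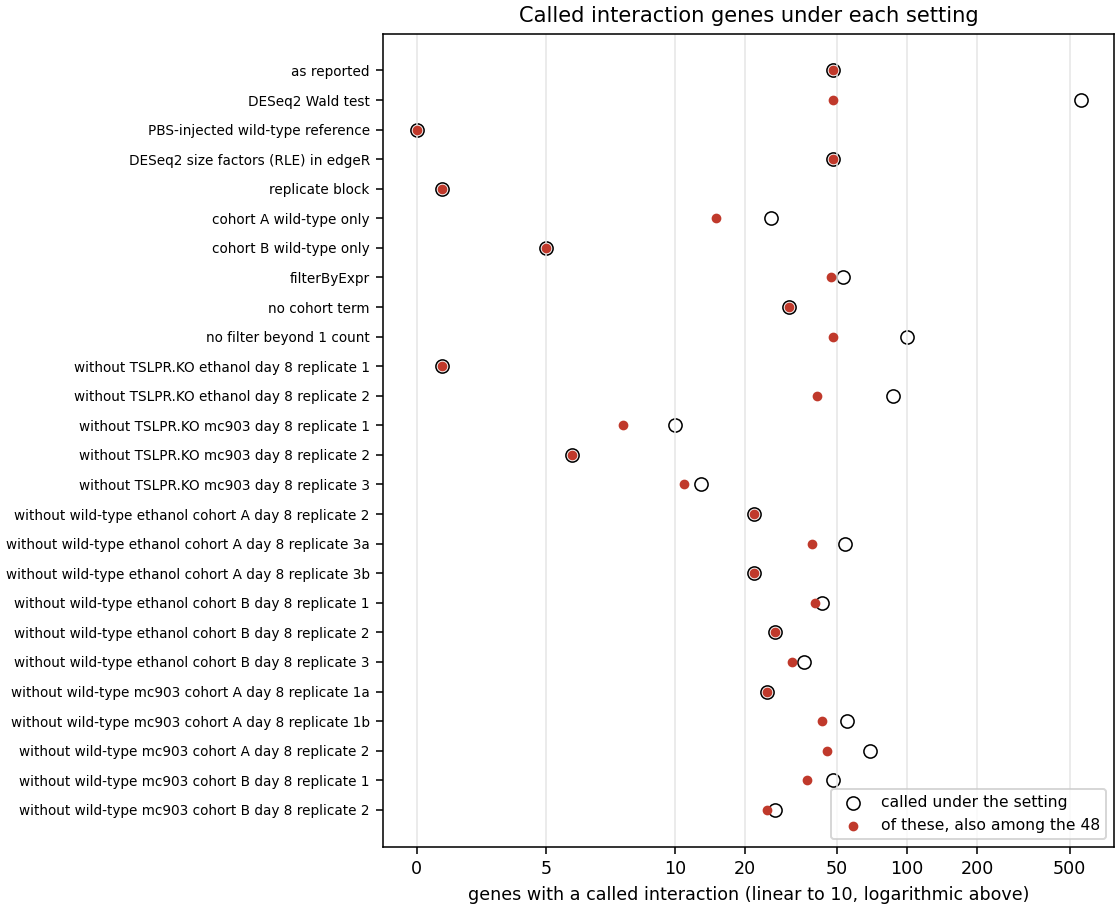
Number of genes called in the day 8 interaction (adjusted p under 0.05) under each alternative reference, tool, filter or left-out library, on an axis that is linear to 10 and logarithmic above. Open dots count all genes called and red dots those also among the 48. The count was 48 in the reported fit, and ranged from 0 with the PBS-injected reference to 559 with DESeq2.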

How the data were processed

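RNA was poly(A)-selected and sequenced as single-end 50-base reads. Per the labels and the study's methods, the authors aligned reads to mm10 with TopHat and Bowtie2 and deposited counts per gene from htseq-count; the annotation release and strand setting are not given in the sources used here, so antisense or overlapping genes cannot be told apart. Rows naming no gene (reads without a feature, for example) were left out. The deposited columns of the authors' own differential expression were not used. Of 46078 gene IDs, 45229 were matched to symbols and coordinates in GENCODE M21 (GRCm38). Depth is given with the results, and precision is that of counting and of 2 to 6 libraries a group. No source says which libraries share an animal or litter, so p-values measure the spread between libraries. No 2 libraries were identical, and the lowest chi-square per degree of freedom between replicates was 4.49.

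Counts were fitted with edgeR 4.0.16 in R 4.3.3 (TMM scaling, quasi-likelihood F test) over every gene reaching 10 counts summed over the libraries, with cohort, genotype, treatment and genotype by treatment as terms. P-values were adjusted over all genes tested by Benjamini-Hochberg with a threshold of 0.05. Fold changes are log2. Errors are standard errors (SE) from the fit. Values in cpm are scaled by TMM, except sums over lists and some markers, which are cpm on the raw totals. These markers were Krt14, Scn10a, Cd3e, Cd3d, Cd4, Csf3r, Cxcr2, Siglecf, Mcpt4, Cma1, Tpsb2 and, on day 12, Cyp24a1 and Crlf2. Cd3e, Csf3r and Cxcr2 in aGr1 skin are scaled by TMM. The PBS, aGr1 and day 12 libraries were fitted apart. A planned day 12 interaction (53 genes called) was not used, because its wild-type libraries went against their labels.

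The members and lists were chosen with earlier results of these data known. Named genes were Crlf2 and Tslp, then the called genes with an interaction of at least 1 log2 unit (up to 8 by p of those whose wild-type change was reduced, up to 5 of the others), then from each list the called members and up to 3 others with the largest wild-type change. The rest of the 48, Il33 and the genes next to the threshold were added after their values were seen. The values of 1 called gene are not reported here. The lists of other tissues and of proliferation are given as counts, medians or sums only. Alternatives were DESeq2 1.42.0, RLE scaling, other filters, no cohort term, single cohorts, the PBS reference, a replicate block and leaving out each library. The TSLPR.KO effect on day 12, the difference between MC903 libraries, the aGr1 fit without 2 ethanol libraries and the test of cohort A against B were added after seeing the data. The scripts were tested on simulated data.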

Additional observations from a re-analysis of the deposited data

Results flagged for a closer look

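The MC903 effect differed between genotypes in 48 genes by the interaction test, and between TSLPR.KO and aGr1 skin in 377 genes. In the 97 genes named, 194 groups of 5 or 6 wild-type libraries were searched for a library far from the others, and 11 were found, where chance gives about 1 in 20. Among MC903 libraries, 1 of the 2 cohort A libraries numbered 1 was high for Csf2rb2 (134 cpm), Itgax (35.4 cpm) and Cxcl11 (3.88 cpm), and the other was high for Sprr2d (262 cpm). Among ethanol libraries, 1 of the 2 cohort A libraries numbered 3 was high for Cyp26b1 (80.9 cpm), Saa3 (3.50 cpm), Wfdc12 (1.14 cpm) and S100g (0.149 cpm). Cohort B ethanol replicate 2 stood apart for Slc27a3 (15.2 cpm) and Fcer1a (0.793 cpm), and replicate 1 for Cxcl5 (0.495 cpm). The MC903 effect of cohort A minus that of cohort B, tested after seeing the data, called 0 of 26175 genes with edgeR (2853 at an unadjusted p under 0.05).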

How the results depend on the processing

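All 48 called genes had the same sign of interaction in every alternative and every fit without a library; of these 1200 values 667 stayed past the threshold and 533 did not, and none of the 48 was called in all 16 fits without 1 library. The interaction on day 8 called 48 genes and 559 with DESeq2, 0 with the PBS reference, 26 with cohort A only, 5 with cohort B only, 31 without a cohort term, 100 without the count filter and 1 to 87 without 1 library. A fit without 1 TSLPR.KO ethanol library assumes that the lone one left varies like the other groups. The wild-type effect called 6086, then 1735 with cohort B only and 4845 to 6333 without 1 library. The TSLPR.KO effect called 879, then 1768 with DESeq2 and 238 to 908 without 1 library, with 238 without ethanol replicate 1 and 504 without MC903 replicate 1. The ethanol difference called 12, then 72 with DESeq2, 5 without a cohort term, 21 without the filter and 1 to 14 without 1 library. The difference between MC903 libraries called 32, then 251 with DESeq2, 17 with cohort B only, 149 without a cohort term, 62 without the filter and 10 to 54 without 1 library. The TSLPR.KO minus aGr1 effect called 377, then 1380 with DESeq2, 222 without aGr1 ethanol replicates 1 and 2, and 63 to 882 without 1 library (63 without TSLPR.KO ethanol replicate 1, 882 without aGr1 ethanol replicate 3). The unused day 12 interaction called 53, then 1052 with DESeq2 and 0 to 69 without 1 library. Counts under all other settings stayed within 1.5 times. The cause of these shifts was not tested.

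A replicate block (the number in the titles as a term) left 1 gene called in the interaction (Car4), 1517 in the wild-type effect, 411 in the TSLPR.KO effect, 98 in the TSLPR.KO minus aGr1 effect and 0 in the day 12 interaction. Same-numbered libraries had correlations of their deviations from group means of -0.099 to 0.103 on day 8, -0.114 to 0.381 in the TSLPR.KO and aGr1 libraries and -0.858 to 0.76 on day 12. In none of these sets was every pair over 0.1. No source says whether the numbers mark pairs, and the pairs are few. These correlations therefore cannot decide between the fits with and without the block.

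Of 1222 such values of the 49 uncalled genes named, 28 passed the threshold and 44 changed sign, none of them from a called value. In log2 units, signs changed with the replicate block S100a9 (0.36), Cxcl5 (0.86), Flg2 (-0.032) and Ifit1 (0.063), with cohort B only Cxcl5 (0.13), Krt77 (-0.29) and Flg2 (-0.48), with cohort A only Wfdc12 (0.47), Stfa1 (-0.16), BC100530 (-0.25) and Cd207 (0.18), with the PBS reference Cxcl11 (0.012), Saa3 (-0.49), Rptn (-0.078), Stfa1 (-1.2), BC100530 (-1.31), Cyp24a1 (-1.55) and Il22ra2 (0.58), without a cohort term Wfdc12 (0.035). They also changed without 1 library, with these ranges over all such fits, for Crlf2 (-1.68 to 0.36), Ccl7 (-2.07 to 0.61), Clec4e (-2.66 to 4.57), Cxcl5 (-1.34 to 0.93), Cxcl2 (-3.10 to 0.56), Saa3 (-0.016 to 1.86), Wfdc12 (-0.86 to 2.37), Krt77 (-0.25 to 1.56), Stfa1 (-0.38 to 0.77), BC100530 (-0.41 to 0.83), Cd207 (-1.16 to 0.081), Cd80 (-1.74 to 0.44), Ccl17 (-2.83 to 3.10) and Il23a (-2.99 to 0.083). No setting moved the median of all genes by more than 0.1 log2 units.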

Other observations

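A few genes differed between genotypes with ethanol, and some of these with MC903 as well. Atp10d, a phospholipid flippase on chromosome 5, as is Crlf2, was higher in TSLPR.KO than in wild-type skin with ethanol (log2 difference 1.53) and with MC903 (1.58), and its interaction was 0.048 (edgeR adjusted p = 0.948). The antibody genes Jchain, Igkc and Igha were higher in TSLPR.KO skin with ethanol by 2.33, 4.24 and 3.61, and with MC903 by 3.33, 3.69 and 4.11, all past the threshold. Their interactions did not pass. Plac9a, Plac9b and Gm9780 were lower with ethanol by differences of -2.46, -2.62 and -2.54, and their MC903 differences are not given here. These genes were chosen after their values were seen, from the 12 called between ethanol libraries.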
